A study of Homo sapiens with 24 samples.

Results

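This account describes Ago2 binding on a set of classic targets of the let-7 microRNA (miRNA) family, together with RAS genes, in untreated and arsenite-treated 293S cells. The set was chosen by gene name: HMGA2, LIN28B, ARID3B, TRIM71, IGDCC3, HIC2, MYCN, NRAS and HRAS. Of these 9 genes, 6 had a row in the peak table, with 25 of the 24041 peaks and 6 of the 6088 genes listed. HMGA2 had 11 peaks, NRAS 5, HIC2 4, LIN28B 2, TRIM71 2 and IGDCC3 1. ARID3B, HRAS and MYCN were not listed, neither by symbol nor by any of their RefSeq transcripts.

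293S is an established line derived from human embryonic kidney, and sodium arsenite is an oxidative stressor that reacts with protein thiols and stalls translation. The study had 24 samples in 6 groups of 4 biological replicates. Ago2 crosslinking and immunoprecipitation (CLIP) libraries, RNA-seq libraries and libraries of the LO band of the CLIP gel, used for miRNA abundance, were each made from cells with no treatment and from cells given 1 mM sodium arsenite for 30 min. No group carried any other treatment or genetic change in the labels. RNA-seq values were not analysed here. Of the 8 marker genes fixed for this line, NEFL, VIM and LHX1 had peaks, and NEFM, INA, KRT8, KRT18 and PAX2 had none. None of the markers of hepatocytes, blood, muscle or fibroblasts had a peak either. A peak reports Ago2 binding and not expression, so these counts do not identify the cells. The peak table had 1 log average and 1 log ratio per peak for all replicates together, so no replicate error, test or read depth can be given for any peak.

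let-7 miRNAs guide Argonaute proteins to sites, mostly in 3' untranslated regions (3'UTRs), that pair with bases 2 to 8 of the miRNA, the seed, and lower the output of the bound mRNA. They are known for holding back genes of the embryonic and proliferative state. LIN28B is an RNA-binding protein that blocks the maturation of let-7, so that it and let-7 restrain each other. HMGA2 encodes a chromatin-bound architectural protein whose 3'UTR is a standard example of let-7 regulation. TRIM71 is the vertebrate form of LIN-41, found as a let-7 target in nematodes. RAS genes encode small GTPases of growth signalling, and a nematode RAS gene was likewise described as a let-7 target.

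The authors' table lists matches to 7-base seeds by miRNA family, so representative mature sequences of the let-7 family are shown with that seed in capitals, beside miR-196b-5p, whose seed is shifted by a single base. The sequences are those of RefSeq (GRCh38.p14).
let-7a-5p: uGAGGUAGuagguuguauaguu
let-7i-5p: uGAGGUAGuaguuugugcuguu
let-7e-5p: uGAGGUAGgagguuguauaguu
let-7d-5p: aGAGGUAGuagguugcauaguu
miR-98-5p: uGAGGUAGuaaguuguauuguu
miR-196b-5p: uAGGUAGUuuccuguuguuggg
All 11 names in the authors' let-7 family, miR-98, miR-4458 and miR-4500 included, had the same bases 2 to 8, GAGGUAG, and differed elsewhere. On that reading a let-7 match is CTACCTC in the target strand and a miR-196 match is ACTACCT. These 7-base sites share 6 bases, so the single 8-base stretch ACTACCTC holds both. The rule by which the table calls a match is not stated. In 27 listed families at least 2 names had a sequence found by exact name, and in 25 of these the sequences found had the same bases 2 to 8. No genome of the files' build was used, so target sites themselves are not printed.

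Most peaks of the 6 genes had more normalized Ago2 signal with arsenite. The log ratio of arsenite over untreated was above 0 at 21 of 25 peaks, against 70.3% of all peaks in the table, and the 4 below 0, against 29.7% of all peaks, were the 4 peaks of HIC2. In 3'UTRs 18 of 22 were above 0, against 76.2% of all 3'UTR peaks. The share of 84.0% had a Wilson 95% interval of 65.3 to 93.6%, which covers counting error over peaks only and holds the share of all peaks. The median log ratio of the 25 peaks was 1.75 and that of all peaks 0.65, with quartiles of -0.16 and 1.49 for all peaks. These are the authors' values, their log base and normalizer are not stated, and they were not turned into folds. Whether they are relative to RNA abundance is not stated either, so a change in Ago2 binding and a change in mRNA level cannot be told apart. With the peak of the highest log average taken for each gene, 5 of 6 genes were above 0, against 79.9% of all genes, and the median was 1.80 against 1.10.

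**Figure D1:**
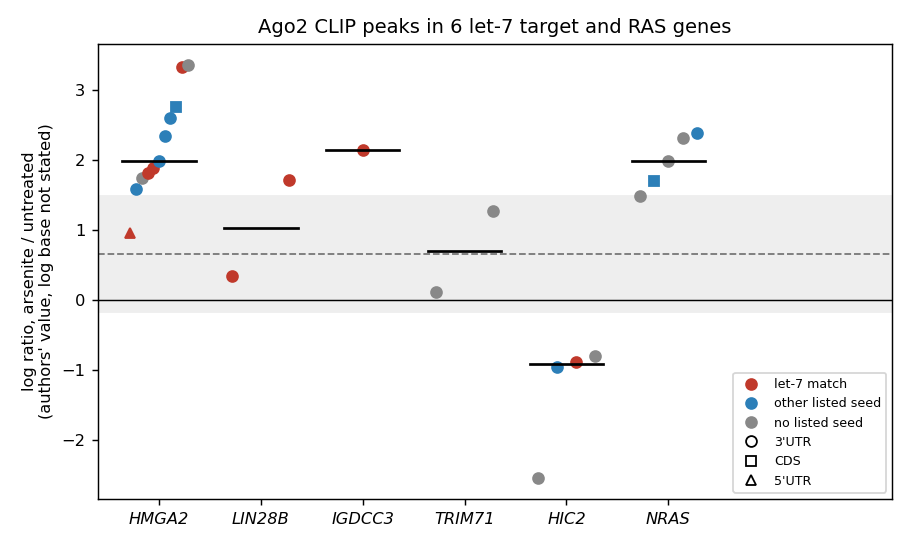
Log ratio of each Ago2 CLIP peak (y axis, authors' value) in the 6 genes (x axis); color marks the seed match, shape the transcript region, and black bars the gene medians. The grey band is the range between the quartiles of all 24041 peaks and the dashed line their median of 0.65; all 4 HIC2 peaks lie under 0, and all peaks of HMGA2 and NRAS lie above the dashed line.

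HMGA2 had the most peaks of the set, with all 11 above 0 and all 11 above the table median. Its values ran from 0.96 to 3.37 with a median of 1.996. At least 11 peaks were listed for 460 genes (7.56% of all genes), and all peaks were above 0 in 24 of these 460 genes, or 5.22%. The 9 peaks in the 3'UTR lay within 2895 nucleotides (nt) of each other, between 66357049 and 66359943 of chromosome 12. All peak coordinates are those of hg19, as deposited.

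The first of them, at chr12:66357049-66357135 on the plus strand, matched the let-7 seed and had a log ratio of 1.89. A narrower peak without a let-7 match overlapped it by 31 nt and had 1.59. Both lay above the upper quartile of all peaks.

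The highest values of HMGA2 lay in the middle of the bound stretch. A 36-nt peak with no listed seed, at chr12:66358157-66358192, had 3.37, at percentile 99.4 of all peaks in the table. A 34-nt peak at chr12:66358310-66358343 matched let-7, miR-181 and miR-196 and had 3.34. Between them, a peak matching the miR-17 family had 2.61, and directly downstream a peak matching miR-15/16, miR-103a-3p and miR-33 had 1.996.

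Further along, the peak at chr12:66359564-66359611, which matched let-7 and miR-196, had 1.81. The last peaks had 2.35 with a match to miR-17-3p and 1.75 with no listed seed. High and lower values thus occurred both at let-7 matches and away from them. The median was 1.89 over the 3 let-7 matched 3'UTR peaks and 2.17 over the other 6, and the ranges overlapped.

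Outside its 3'UTR, HMGA2 had a coding sequence (CDS) peak at chr12:66221785-66221825, which matched miR-331-3p and had a log ratio of 2.77. Its lowest value, 0.96, belonged to a let-7 matched peak in the 5'UTR, at chr12:66218742-66218811. That value was close to the median of 1.22 over the 10 let-7 matched 5'UTR peaks of the table, all of which were above 0, and higher than the median of 0.25 over all 5'UTR peaks.

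LIN28B had only let-7 matched peaks, which lay 132 nt apart in the 3'UTR and differed in log ratio. The upstream peak, at chr6:105529103-105529149 on the plus strand, also matched miR-196 and had 0.35, below the table median. The downstream peak, at chr6:105529282-105529321, also matched the miR-30 family and had 1.72. The difference of 1.37 was larger than the median absolute difference of 0.84 between neighbouring peaks of the same gene that do not overlap, over 14239 pairs, but within their upper quartile of 1.48.

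IGDCC3, an immunoglobulin-superfamily membrane protein of the embryo, had a single peak, at chr15:65620543-65620588 on the minus strand. It lay in the 3'UTR, matched let-7 and no other listed family, and had a log ratio of 2.15. Its log average over both treatments was -0.02, at percentile 99.7 of all peaks. A log average is not given per length or per transcript in the sources used here, so this rank describes the table and not how strongly the mRNA was bound.

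TRIM71 had peaks in its 3'UTR that overlapped by 13 nt. Neither matched a listed seed, where 31.5% of all peaks in the table did. The peak at chr3:32933674-32933705, on the plus strand, had a log ratio of 0.12, and the one at chr3:32933693-32933738 had 1.28. Overlapping neighbours in the whole table differed by a median of 0.39 over 3675 pairs, with an upper quartile of 0.75 and a 95th percentile of 1.45. The TRIM71 pair, with a difference of 1.16, was thus among the more discordant, and its direction rests on values of which 1 is near 0.

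HIC2, a zinc finger transcriptional regulator, went the other way. Its let-7 matched peak, at chr22:21801226-21801288 on the plus strand, had a log ratio of -0.89. A peak matching miR-18a-3p began 127 nt downstream of its start and had -0.95. Peaks with no listed seed had -2.55 at chr22:21804728-21804762 and -0.79 at chr22:21805345-21805403.

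All 4 HIC2 peaks lay in the 3'UTR, where 23.8% of all peaks were below 0. Only 0.146% of all peaks in the table had a log ratio as low as -2.55. At least 4 peaks were listed for 1901 genes, and in 30 of them (1.58%) every peak was below 0. The let-7 match did not set the HIC2 peak apart from its neighbours, since it lay within their range. Of the 350 let-7 matched peaks in the table, 13.7% were below 0.

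NRAS was the only RAS member listed. Its 5 peaks were all above 0 and all above the table median, with a median of 1.999 and the narrowest spread of the members with several peaks. At least 5 peaks were listed for 1442 genes, and in 308 of them (21.4%) every peak was above 0. The SD over its peaks was 0.38, and only 4.52% of genes with at least 4 peaks had a smaller one, where the median SD was 0.88. None of its 5 peaks matched let-7, where 1.46% of all peaks in the table did.

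Along the minus strand, the NRAS CDS peak at chr1:115252291-115252317 matched miR-29 and had 1.70. The 3'UTR peaks then had, from 5′ to 3′, 1.49 at chr1:115249836-115249872, 1.999 at chr1:115248108-115248154, 2.31 at chr1:115247633-115247671 and 2.39 at chr1:115247253-115247286. The last matched the miR-25/92 family and the other 3 matched none. Values were thus higher toward the 3′ end of the bound stretch, over 4 peaks. The log averages ran from -6.86 to -6.24, and only 1 of the 5 peaks was in the upper 75% of the table, so the NRAS values came from low-signal peaks.

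**Figure D2:**
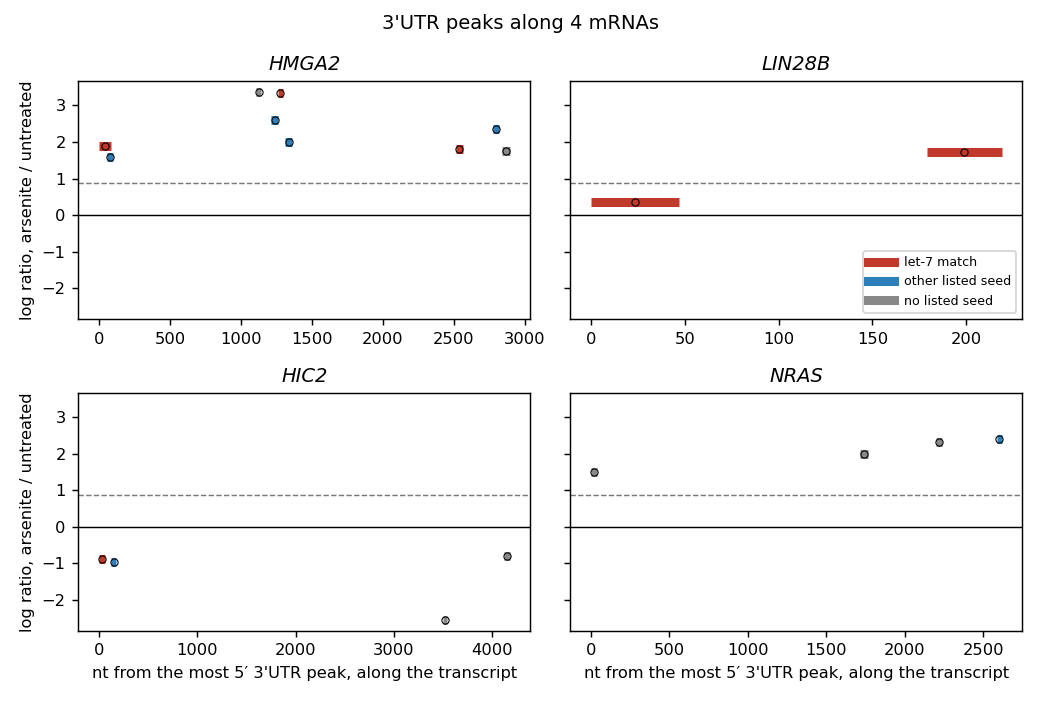
Log ratio (y axis, authors' value) of 3'UTR peaks against distance in nt along the transcript from the most 5′ 3'UTR peak (x axis, a different scale in each panel) for HMGA2, LIN28B, HIC2 and NRAS; bars span each peak, circles mark its middle, color marks the seed match, and the dashed line is the median of all 3'UTR peaks, 0.88. All HMGA2 and NRAS peaks lie above the dashed line, the LIN28B peaks lie on either side of it, and the HIC2 peaks lie under 0.

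A let-7 match was common in the set without marking its higher log ratios. It was present at 8 of 25 peaks, or 32.0% (Wilson 95% interval 17.2 to 51.6%), against 1.46% of all peaks in the table, the genes having been chosen as let-7 targets. The 8 lay in HMGA2, LIN28B, IGDCC3 and HIC2, and 7 of them were above 0, against 86.3% of all let-7 matched peaks. Their median was 1.77 and that of the 17 peaks without a let-7 match 1.75, a difference of 0.02 whose sign turned under several alternatives given in the closing section. Peaks that matched only other listed families had a median of 2.17 over 8 peaks, and those with no listed seed 1.49 over 9.

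Over the 342 let-7 matched peaks of all other genes, the median was 1.41, with quartiles of 0.70 and 2.13. Of the 8 let-7 matched peaks in the set, those of LIN28B upstream and HIC2 lay below that range, and those of IGDCC3 and the middle of the HMGA2 3'UTR above it. The other 4 lay inside. In 3'UTRs the table had a median of 1.34 over 165 let-7 matched peaks and 0.87 over 12086 others.

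A match to both the let-7 and the miR-196 family was listed for 86 peaks, which is 24.6% of the let-7 matched and 42.2% of the 204 miR-196 matched peaks. Both were listed at 3 peaks of the set, in HMGA2 (3.34 and 1.81) and LIN28B (0.35). In the whole table the median log ratio was 1.76 over the 86 peaks with both matches, 1.32 over the 264 with let-7 only and 1.20 over the 118 with miR-196 only. These differences were not tested, since the table holds no replicate values. Whether such peaks hold the shared stretch or separate sites was not examined, and which miRNA occupied them cannot be told from the table.

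**Figure D3:**
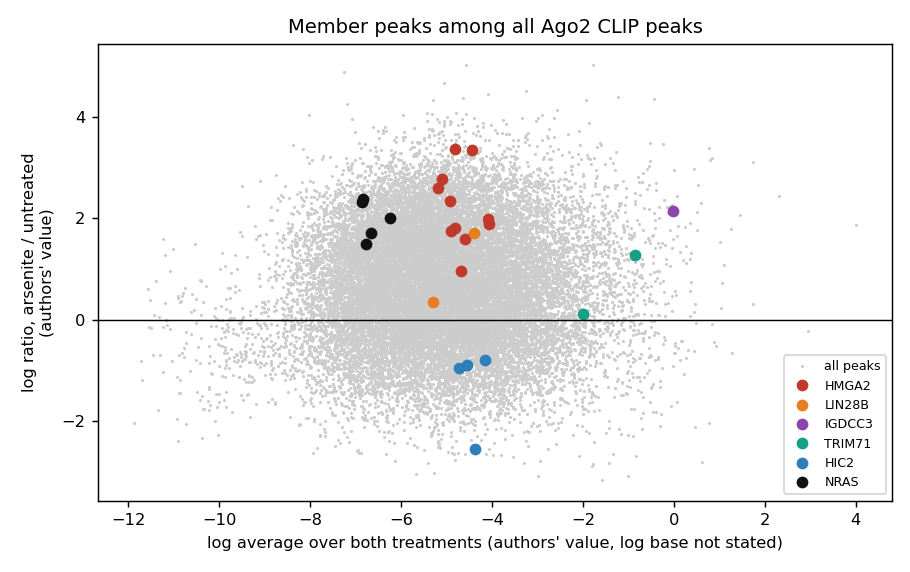
Log ratio (y axis) against log average over both treatments (x axis), both authors' values of unstated log base, for all 24041 peaks (grey) and the 25 peaks of the 6 genes (colored by gene). NRAS peaks lie at the low end of the log average (-6.86 to -6.24), TRIM71 and IGDCC3 at the high end (-1.99 to -0.02), and HIC2 peaks share the log averages of HMGA2 but lie below 0.

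HMGA2 and HIC2, which went in opposite directions, had similar log averages. HMGA2 log averages ran from -5.18 to -4.07 and HIC2 from -4.72 to -4.14, so the genes with the most peaks above and below 0 overlapped there. When all peaks were divided into 10 equal parts by log average, the median log ratio of a part lay between 0.41 and 0.85. Every HIC2 peak was under this range. Of the other 21 peaks, 19 were over it, and the upstream LIN28B peak and the TRIM71 peak with 0.12 were under it. Single peaks spread far more widely than these medians, with SDs from 1.08 to 1.20 within the parts. The quartiles of all peaks, -0.16 and 1.49, also lay outside the range. The share of all peaks on either side was not counted, so these counts do not set the members apart.

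The let-7 miRNAs themselves were measured in the LO band libraries. The most abundant member, let-7a-5p, had a mean normalized read count of 19128 in untreated and 21593 in treated cells in the authors' deposited table, which gives a log2 difference of 0.17 (DESeq p = 0.429, and 1 after adjustment). In the authors' deposited table let-7i-5p had 14962 and 15633, and the lowest mean was that of miR-98, with 770 and 613 (log2 difference -0.33, DESeq adjusted p of 1). The other 6 listed members had log2 fold changes from 0.03 to 0.32 in the authors' deposited table. None of the 9 had an unadjusted p under 0.05, where 1.98% of the entries of the authors' deposited table did, and 0% of the 1213 entries passed an adjusted p of 0.05 in the authors' deposited table. miR-4458 and miR-4500 were not listed.

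Summed over the 9 miRNAs, the authors' means were 57116 untreated and 63675 with arsenite, a log2 ratio of 0.16. The family held 0.337% of the summed means of mature miRNAs. The summed means of miR-196a-5p and miR-196b-5p were 45.1 times those of let-7 in untreated cells and 40.0 times with arsenite, from the authors' deposited table. Read counts of different miRNAs also depend on how well each is captured in a library, so these ratios compare reads and not molecules.

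**Figure D4:**
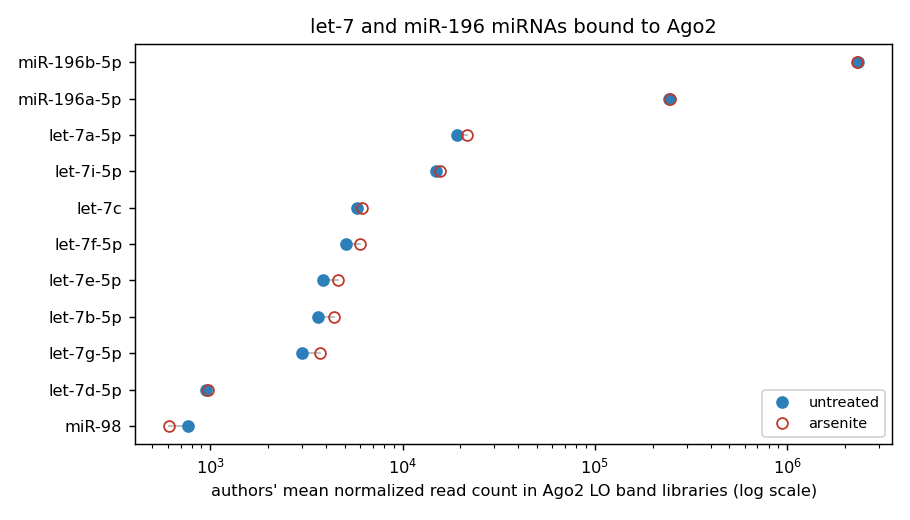
Authors' mean normalized read counts (x axis, log scale) of let-7 family and miR-196 miRNAs in Ago2 LO band libraries, untreated (filled) and with arsenite (open), without error bars because the table gives means only. Arsenite means lie slightly above untreated ones for 8 of 9 let-7 family members, where 51.8% of the 577 mature miRNAs with a mean of at least 20 do, and below for miR-98; the miR-196 means hardly differ.

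Paralogs of the members gave mixed values. MYC, a proliferation transcription factor and paralog of MYCN, had -0.06 and 2.0 in the CDS and 1.52 in the 3'UTR, without a listed seed. LIN28A was not listed. ARID3A, the paralog of ARID3B, had a let-7 matched CDS peak with 1.72, 5'UTR peaks with 0.40, 0.76 and -0.40, and a 3'UTR peak with 1.24. HMGA1, the paralog of HMGA2, had 4 peaks between -0.12 and 0.42 and no listed seed. ARID3A and HMGA1 were singled out after their values were seen.

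A list of 40 other let-7 targets had 32 genes with a peak, and 29 of them were above 0 at the peak of the highest log average (90.6%, against 79.9% of all genes), with a median of 1.48 against 1.10 over all genes. Over all peaks of these genes 156 of 213 were above 0 (73.2%, against 70.3% of all peaks). The list was put together with earlier results of these data known. The genes with the highest log averages were MYC (1.52), LRIG3, a membrane protein with leucine-rich repeats (2.35 at a let-7 matched peak), and NR6A1, a nuclear receptor of germ cells and embryos (2.10). At the peak of the highest log average, the 14 genes with a let-7 matched peak were all above 0, with a median of 1.96, and the 18 without one had a median of 1.06, with 3 below 0. HIC2 was below 0 at that peak, which had no listed seed. In PRTG, BACH1 and NAP1L1, among the 14, that peak was likewise not a let-7 matched one.

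Over all peaks of these 32 genes, the 21 with a let-7 match had a median of 2.09 and the 192 without 0.60. IGF2BP1, an RNA-binding protein of the embryo, had 5 let-7 matched peaks with a median of 1.77 and 41 others with a median of -0.18. Without IGF2BP1 the medians were 2.09 and 0.84. DICER1, the enzyme that cuts miRNA precursors, had a median of 1.88 at 4 let-7 matched peaks and 1.56 at 20 others. Of the 21 let-7 matched peaks 1 was below 0, an IGF2BP1 peak with -0.53, against 13.7% of all let-7 matched peaks in the table. IGF2BP1 and DICER1 are named because, with HMGA2, they had among the highest numbers of let-7 matched peaks, and they were chosen after their values were seen.

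Genes of RAS signalling other than the members had a median close to that of all genes, a difference for which no test was possible. Of 39 genes on the RAS to ERK list, 25 had a peak and 20 of these were above 0 (80.0%, against 79.9% of all genes), with a median of 1.16 against 1.10. None of their 73 peaks had a let-7 match, against 1.46% of all peaks in the table. By log average the leading genes were RCE1, a protease that trims prenylated RAS (-0.84), SPRY2, a feedback inhibitor (2.30), and MAP2K2, the MEK2 kinase (1.20).

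In the MYC network, 8 of 9 genes were above 0 at the peak of the highest log average, against 79.9% of all genes, with a median of 1.52 against 1.10. Over all peaks of these genes the order turned, with 20 of 32 above 0 (62.5%) against 70.3% of all peaks. MLX, a dimerization partner, had 1.68 and MXD4, a MYC antagonist, -0.44. Of the 8 symbols listed for LIN28 action and let-7 decay, 3 had a peak. ZCCHC11, the terminal uridylyltransferase that tags let-7 precursors, had 2.65. That value came from 1 low-signal peak, with a log average of -7.18, in the lowest of the 10 parts. SYNCRIP had 0.77 and MSI2 0.27 at the peak of the highest log average. The 17 peaks of SYNCRIP ran from -0.60 to 2.63, and its 1 let-7 matched peak had 2.25.

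**Figure D5:**
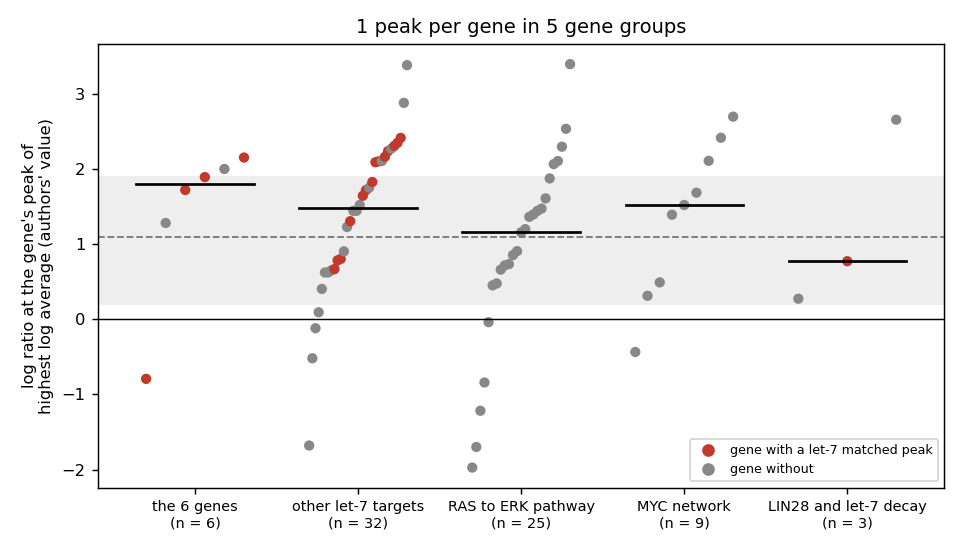
Log ratio at each gene's peak of highest log average (y axis, authors' value) for the 6 genes and 4 lists (x axis, n = genes with a peak); bars are medians, red marks genes with a let-7 matched peak, the grey band is the range between the quartiles of all 6088 genes and the dashed line their median of 1.10. The peak plotted for a red gene need not be the let-7 matched one. HIC2, at -0.79 at a peak with no listed seed, is the only red point below 0.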

How the data were processed

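Libraries of 24 samples underlie the tables used here, in 6 groups of 4 biological replicates, but the tables hold 0 columns of single samples. The edgeR or limma tests planned for single-sample values therefore could not be run. Per the submitters' processing notes, Bowtie 0.12.8, TopHat, DESeq and hg19 were used, without a role or order. No source used here names the peak caller, its filters or the normalizer. The peak values are scores, that is log averages and log ratios of unstated base, combined over replicates by the authors, per the file headers. Coordinates are printed as deposited, with no shift, since the first base's number is not given.

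The miRNA means are signal values deposited by the authors (read counts divided by size factors, averaged per treatment). The ratio (fold) of the means, its log2 value and the DESeq p-values are also the authors' deposited values.

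Peaks were taken by the annotation name, and matches from the authors' seed column. Medians, counts and Wilson 95% intervals were computed with Python 3.11.15, pandas 2.3.3 and scipy 1.17.1, after the functions had been tested on simulated data. The members and lists were chosen with earlier results of these data known. Named genes were all members, the paralogs MYC and LIN28A, and the 3 genes of each list with the highest log average. ARID3A, HMGA1, IGF2BP1 and DICER1 were added afterwards, and 1 gene that the rule names is not reported here. Alternatives were a filter to the upper 75% of log averages (at least -6.25), 3'UTR peaks only, 1 peak per group of overlapping peaks, the median over a gene's peaks and leaving out each gene.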

Additional observations from a re-analysis of the deposited data

How the results depend on the processing

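No paired analysis was possible because the tables hold 1 value per peak or miRNA over all replicates, and for the same reason no replicate could be left out and no other normalization tried. The median of the 25 peaks was above 0 under each alternative, which says little, since that of all peaks was 0.65. The median of the set lay between 1.39 and 1.89 when 1 gene at a time was left out. The share above 0 then lay between 71.4 and 100%, the upper end being that without HIC2 and the lower end that without HMGA2. The share of all peaks in the table was 70.3%, so the higher share of the set rested on HMGA2, which held 11 of the 25 peaks. The difference in median log ratio between peaks with and without a let-7 match, 0.02, had no stable sign. It lay between -0.35 and 0.10 with 1 gene left out, and was -0.35 without HMGA2, -0.23 without TRIM71, -0.03 without IGDCC3 and -0.18 without HIC2. It was -0.23 with 1 peak per group of overlapping peaks. With peaks that match at least 1 listed seed, an alternative chosen after seeing the data, it was -0.41. The cause of these shifts was not tested. The medians of the 3 gene lists with at least 5 measured genes and of the let-7 miRNAs kept their sign under the alternatives run. For the lists this says little, since 79.9% of all genes were above 0. With the median over all peaks of each gene, the other let-7 targets fell from 1.48 to 0.97. The RAS to ERK list fell from 1.16 to 0.92, and the MYC network stayed at 1.52. The value of all genes under that alternative is not given here, so the differences from all genes were not checked. Movements of a median were judged against the SD over peaks, genes or miRNAs, since there is no replicate SD.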

Other observations

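A fragment of the miR-98 hairpin outside the mature sequences, listed downstream in the stem, had a mean of 16.7 in untreated and 59.6 in treated cells in the authors' deposited table (DESeq p = 0.0257, and 1 after adjustment), while mature miR-98 had 770 and 613. By number of let-7 matched peaks, HMGA2 shared the second place in the table: IGF2BP1 had 5, HMGA2 and DICER1 were among 3 genes with 4, and 300 genes had 1.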
